A study of Mus musculus with 15 samples.

Results

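The 10 genes described here carry or control the reabsorption of calcium and magnesium along the distal nephron: Trpm6, Trpv5, Calb1, S100g, Slc8a1, Casr, Cldn10, Cldn14, Cldn16 and Cldn19. They were chosen by function, by matching the Ensembl identifier of each gene to its symbol in the GRCm38 annotation, and are 10 of the 54532 genes in the deposited table. Kidneys of 15 male C57BL/6 mice were sequenced as poly-A RNA, 5 mice per group, and each library is called here by its group and mouse number. The control group (C) ate normal diet. The CKD model group (M) ate chow with 0.25% adenine for 4 weeks, which injures the tubules, and was then returned to standard diet. The AA group had the same adenine course and also received asiatic acid, a triterpenoid from Centella asiatica, by daily gavage at 30 mg/kg through week 8, when all mice were killed. The mice were 8 weeks old on receipt, and C and M mice were gavaged with the vehicle. A library is whole kidney tissue from 1 mouse, so fewer cells of a tubule segment and less RNA per cell cannot be told apart in any value below.

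Calcium and magnesium that pass the glomerular filter are reclaimed by different routes in successive tubule segments. In the thick ascending limb both ions pass between cells through pores built by the tight junction proteins claudin 16 and claudin 19, while claudin 10 there forms a sodium pore, and the calcium-sensing receptor and claudin 14 restrain this route. In the distal convoluted and connecting tubules the ions pass through the cells, entering by the channels TRPM6 (magnesium) and TRPV5 (calcium), with calcium then carried by the buffers calbindin-D28k (Calb1) and calbindin-D9k (S100g) and leaving partly through the sodium-calcium exchanger NCX1 (Slc8a1).

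Values are FPKM (fragments divided by exon length and by a scaling total of the library), as the authors deposited them. Differences are log2 fold changes on the log2(FPKM + 1) scale, which understates the change of genes near 0, and were tested with limma over every gene that was above 0 FPKM in no fewer than 5 of the 10 libraries in the fit. A gene is called where the Benjamini-Hochberg adjusted p was at most 0.05 and the log2 fold change at least 1 in either direction. Between 13646977 and 28884515 counted fragments were recovered per library, of which 53.0 to 87.2% were mitochondrial. That share was 53.0 to 62.5% in C, 64.0 to 86.8% in M and 69.2 to 87.2% in AA. Fragments outside the mitochondrial genome numbered 6951385 to 13576651 in C, 2077635 to 7142910 in M and 2225753 to 4271164 in AA. C and AA overlapped in neither measure, and the part of this in the differences below was not tested. M mice 1 to 3 stood apart with 10068 to 12222 genes above 0, against 23040 and 25460 in M mice 4 and 5 and 18695 to 25251 in the other groups. Of 12 housekeeping genes, 4 values were exactly 0, among them Gapdh, so a 0 here means only that a gene was listed at 0.

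None of the 10 genes was called in any of the 3 comparisons. For Trpv5, Casr, Slc8a1 and Cldn14 a call in the lower direction against C was not possible on this scale, since their C means of 0.62, 0.57, 0.27 and 0.07 log2(FPKM + 1) leave no room for a fall of 1. The result depended on the processing, since Trpm6, Trpv5, S100g, Cldn10, Cldn16 and Cldn19 were each called in some comparison under an alternative, as given with each gene. Among the alternatives were a smaller pseudocount, TPM, in which every library has the same total, a total that leaves out the mitochondrial genome, centring each library on its median gene, and voom, which models the recovered fragments as counts. A marker of the segment in which the transcellular genes are used was called. Slc12a3, the thiazide-sensitive sodium chloride cotransporter of the distal convoluted tubule, read 15.7, 93.8, 16.0, 33.8 and 64.1 FPKM in C mice 1 to 5. It was listed at 0 in M mice 1 to 3 and read 1.58 and 6.02 FPKM in M mice 4 and 5, and 1.02, 2.27, 1.35, 1.01 and 1.11 FPKM in the AA mice. It fell by 4.34 in M vs. C (SE 0.64, limma adjusted p = 0.0144) and by 3.96 in AA vs. C (SE 0.45, limma adjusted p = 0.000217), and no M or AA library reached any C library. Leaving out C mouse 5 or M mouse 3 ended the M vs. C call at a value of -4.12 or -4.13 (limma adjusted p = 0.0618 and 0.0520), as did leaving out M mice 1 to 3 (-3.08, limma adjusted p = 0.132). The share of all tested genes that were called was 1.38% in M vs. C, 12.8% in AA vs. M and, for AA vs. C, 19.8%, so 0 of 9 tested is close to the background in M vs. C. At an unadjusted p under 0.05 stood 3 of the 9 members tested in M vs. C, 1 of 9 in AA vs. M and 4 of 10 in AA vs. C, beside 16.5%, 32.1% and 46.8% of all genes. No member had an adjusted p of at most 0.05 in M vs. C (1.47% of all genes) or in AA vs. M (17.8%), and none had groups without overlap in those comparisons (4.72% and 13.2% of all genes). Without M mice 1 to 3 M vs. C had 0 members called and AA vs. M had 1, Trpm6, which was then lower in the AA group.

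**Figure D1:**
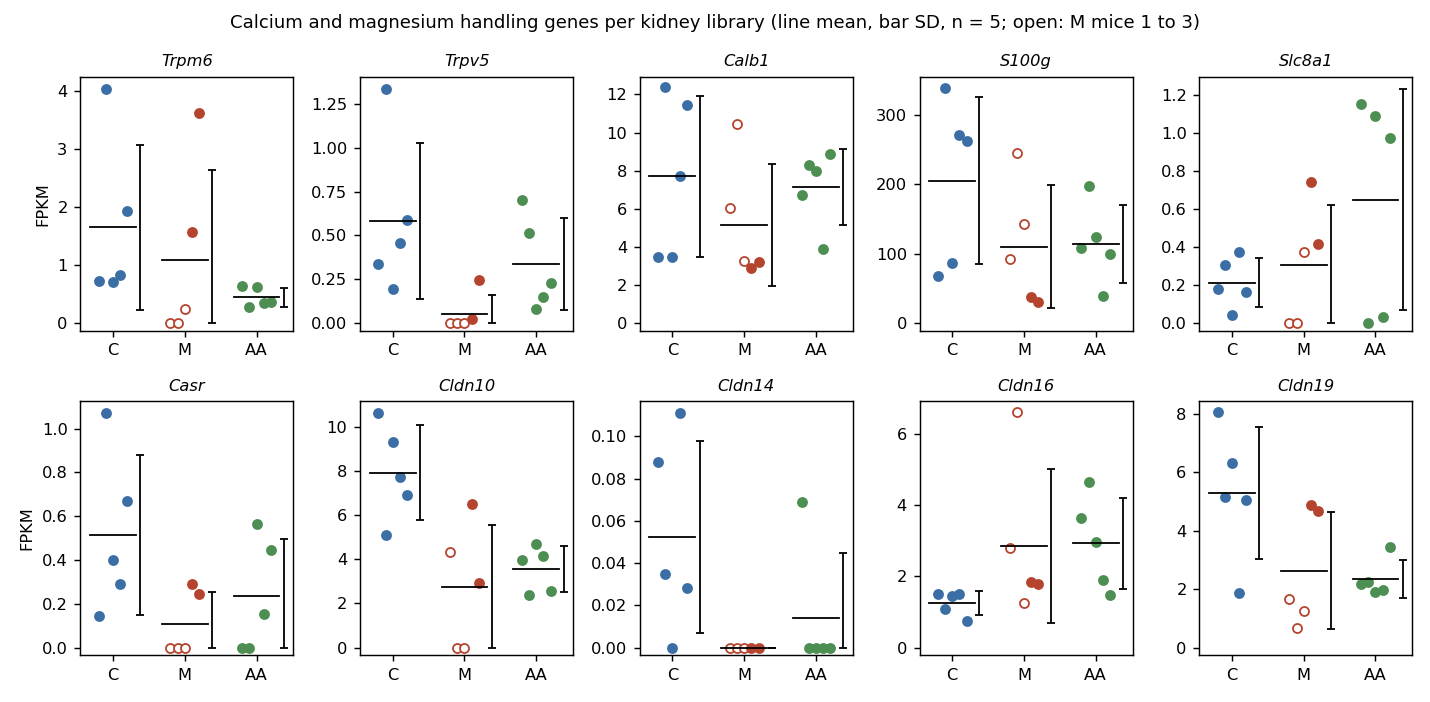
FPKM (y axis, linear, a separate scale for each gene) of the 10 genes in each of 15 kidney libraries, grouped as C, M and AA, with the mean as a line and the SD as a bar (n = 5, its lower end stopped at 0) and M mice 1 to 3 as open circles. Open M circles lie below the filled ones for Trpm6, Trpv5, Slc8a1, Casr and Cldn19, and above them for S100g and Calb1. S100g lies between 93.2 and 246 FPKM in M mice 1 to 3 and at 38.3 and 30.2 FPKM in M mice 4 and 5. For Calb1 the gap is narrow, with 3.27 to 10.4 FPKM against 2.91 and 3.19 FPKM.

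Trpm6 (ENSMUSG00000024727, chr19:18749983-18892511, plus strand, GRCm38) encodes the magnesium channel of the distal convoluted tubule. Its C libraries read 0.732, 4.03, 0.712, 0.826 and 1.93 FPKM. In the M group it was listed at 0 in mice 1 and 2 and read 0.249, 1.57 and 3.61 FPKM in mice 3 to 5, and the AA libraries read 0.632, 0.273, 0.614, 0.351 and 0.363 FPKM. Every AA library was below every C library, whereas the M group spanned almost the whole range of both. The log2 fold change was -0.74 in AA vs. C (SE 0.29, limma adjusted p = 0.0648), -0.49 in M vs. C (SE 0.47, limma adjusted p = 0.624) and -0.25 in AA vs. M (SE 0.38, limma adjusted p = 0.691). In AA vs. C it was called with a pseudocount of 0.1 (-1.40, limma adjusted p = 0.0491), with TPM (-1.50, limma adjusted p = 0.00490) and with the total outside the mitochondrial genome (-1.48, limma adjusted p = 0.0327). Without M mice 1 to 3, M vs. C was 0.52 (limma adjusted p = 0.752) and AA vs. M was -1.26 (limma adjusted p = 0.0285). The sign in AA vs. M turned with a pseudocount of 0.1 (0.18), the total outside the mitochondrial genome (0.029), voom on the recovered fragments (1.46) and with 1 library left out (up to 0.10), so no direction is given for it.

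Trpv5 (ENSMUSG00000036899, chr6:41652173-41680769, minus strand) encodes the apical calcium channel. It read 0.336, 1.33, 0.195, 0.455 and 0.590 FPKM in C. M mice 1 to 3 were listed at 0 and M mice 4 and 5 read 0.0210 and 0.247 FPKM, from 2 and 25 fragments. The AA libraries read 0.702, 0.513, 0.0822, 0.150 and 0.230 FPKM. All M libraries were below the C mean and all AA libraries above the M mean, but both pairs of groups overlapped. The log2 fold changes of -0.55 in M vs. C (SE 0.17, unadjusted p = 0.00678, limma adjusted p = 0.138) and 0.33 in AA vs. M (SE 0.14, unadjusted p = 0.0355, limma adjusted p = 0.124) did not pass, nor did -0.23 in AA vs. C (limma adjusted p = 0.381). M vs. C was called with TPM (-1.04, limma adjusted p = 0.0374) and with voom on the recovered fragments (-4.16, limma adjusted p = 0.0485), and AA vs. M with voom (3.45, limma adjusted p = 0.0437), while library median centring turned AA vs. M to -0.19.

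Calb1 (ENSMUSG00000028222, chr4:15881264-15908064, plus strand) encodes calbindin-D28k, the cytosolic buffer that shuttles calcium across distal cells. Its values were 3.46, 12.4, 3.47, 7.72 and 11.4 FPKM in C, a mean of 7.69 ± 4.23 FPKM (SD, n = 5). They were 6.03, 10.4, 3.27, 2.91 and 3.19 FPKM in M and 6.73, 8.28, 7.96, 3.89 and 8.89 FPKM in AA, where the mean was 7.15 ± 1.99 FPKM (SD, n = 5). All AA values lay within the C range. The log2 fold change in AA vs. C was 0.02 with a 95% confidence interval from -0.75 to 0.79 (limma adjusted p = 0.968). That interval holds for this scaling only, since with TPM the value was -0.98 (limma adjusted p = 0.0383). In M vs. C it was -0.47 (SE 0.42, limma adjusted p = 0.596), while AA vs. M gave 0.49 (SE 0.37, limma adjusted p = 0.380).

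S100g (ENSMUSG00000040808, chrX:162961992-162964599, minus strand) encodes calbindin-D9k, a small vitamin D dependent calcium buffer. It had the highest level of the 10 genes in every group, and its libraries did not overlap with those of the next gene in order. C libraries read 68.0, 339, 86.6, 271 and 262 FPKM. The M libraries read 93.2, 246, 143, 38.3 and 30.2 FPKM and the AA libraries 109, 198, 125, 39.5 and 100 FPKM. M mice 1 to 3 were within the C range and M mice 4 and 5 below it, the reverse of Trpm6. The log2 fold change was -1.03 in M vs. C (SE 0.63, limma adjusted p = 0.434), -0.74 in AA vs. C (SE 0.52, limma adjusted p = 0.275) and 0.29 in AA vs. M (SE 0.58, limma adjusted p = 0.772). With TPM it was called in M vs. C (-2.05, limma adjusted p = 0.0166), as it was in AA vs. C (-1.85, limma adjusted p = 0.00153). C mice 1 and 3, with the lowest S100g and Calb1 of the C group, also had the highest Aqp2, the water channel of collecting duct principal cells, at 255 and 437 FPKM against 20.6 to 29.6 FPKM in the other C mice. Other markers of these cells were divided. Aqp3 and Fxyd4 were highest in C mice 1 and 3 as well, while Scnn1b, Scnn1g, Hsd11b2 and Avpr2 were highest in C mice 2 and 5. Hsd11b2 read 36.1 and 14.1 FPKM in C mice 2 and 5 against 6.97 and 8.28 FPKM in C mice 1 and 3. The part of this spread in the results was not tested.

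Slc8a1 (ENSMUSG00000054640, chr17:81373105-81738377, minus strand) encodes NCX1, which is also abundant in heart and smooth muscle. It read 0.180, 0.305, 0.0410, 0.373 and 0.163 FPKM in C. In M it was listed at 0 in mice 1 and 2 and read 0.376, 0.744 and 0.415 FPKM in mice 3 to 5. The AA libraries read 1.15, 0, 1.09, 0.0331 and 0.974 FPKM. The AA group thus fell into 3 libraries above every C and M library and 2 below every C library. The log2 fold changes were 0.08 in M vs. C (limma adjusted p = 0.814), 0.29 in AA vs. M (limma adjusted p = 0.499) and 0.37 in AA vs. C (SE 0.23, limma adjusted p = 0.229). Its exons overlap opposite-strand genes over 1.62% of their length, so some reads may belong to those genes.

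A pair of the transcellular genes is set side by side here because S100g and Trpv5 are both known vitamin D responsive genes of the same cells, and their levels ranked the libraries differently. The 250 bases before their RefSeq start sites (GRCm38.p6, each written 5′ to 3′ on its gene's strand) are chrX:162964600-162964849 for S100g and chr6:41680724-41680973 for Trpv5. Capitals mark the half-site of nuclear receptors, AGGTCA or TGACCT, and the TATA box letters, TATAAA or TTTATA.

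S100g: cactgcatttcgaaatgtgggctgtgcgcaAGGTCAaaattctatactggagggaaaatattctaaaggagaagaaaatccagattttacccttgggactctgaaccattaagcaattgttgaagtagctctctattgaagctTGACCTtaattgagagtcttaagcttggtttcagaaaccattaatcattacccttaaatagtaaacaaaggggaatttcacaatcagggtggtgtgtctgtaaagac
Trpv5: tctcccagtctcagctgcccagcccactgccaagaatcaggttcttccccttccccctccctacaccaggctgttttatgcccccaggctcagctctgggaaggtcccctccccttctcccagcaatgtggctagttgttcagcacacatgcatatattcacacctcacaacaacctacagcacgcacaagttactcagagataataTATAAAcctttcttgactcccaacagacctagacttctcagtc

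Searched on both strands, the half-site letters occur in 14.0% of 32851 RefSeq promoter windows of this length and the TATA box letters in 12.4%. RefSeq windows were matched for 9 of the 10 genes, all but Calb1, and such matches describe the letters only.

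Casr (ENSMUSG00000051980, chr16:36493696-36562141, minus strand) encodes the calcium-sensing receptor, which lowers paracellular calcium uptake in the thick ascending limb when blood calcium is high. C libraries read 0.145, 1.07, 0.399, 0.288 and 0.671 FPKM. It was listed at 0 in M mice 1 to 3 and read 0.289 and 0.244 FPKM in M mice 4 and 5, and in AA it read 0, 0, 0.565, 0.154 and 0.448 FPKM. No M library reached the C mean, yet the groups overlapped. The log2 fold change of -0.43 in M vs. C had an unadjusted p of 0.0246 and a limma adjusted p of 0.232, and the values in AA vs. M (0.14) and AA vs. C (-0.29) had limma adjusted p of 0.554 and 0.239.

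Cldn14 (ENSMUSG00000047109, chr16:93919031-94008837, minus strand), the claudin that blocks the cation pore, was barely detected. It read 0.0877, 0.0351, 0, 0.111 and 0.0281 FPKM in C, from at most 8 fragments. All 5 M libraries were listed at 0, and of the AA libraries only mouse 1 was above 0, at 0.0690 FPKM from 2 fragments. A count of 3 fragments, the limit that a count of 0 allows, corresponds to 0.0451 to 0.135 FPKM in the M libraries, a range that overlaps the C values, so a difference was not detectable at this depth. The gene had too few values above 0 to be tested in M vs. C or AA vs. M, and its AA vs. C log2 fold change was -0.05 (limma adjusted p = 0.479).

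The claudins assigned here to the thick ascending limb differed in direction in AA vs. C, and the Cldn10 value also holds a form of the proximal tubule. In that comparison Cldn10 and Cldn19 were lower and Cldn16 was higher in the AA group, each with a limma adjusted p of at most 0.05, all 3 short of the fold threshold. With all 15 libraries in one fit the limma adjusted p of Cldn10, Cldn16 and Cldn19 were 0.136, 0.0881 and 0.0992, and with a pseudocount of 0.1 all 3 were called (-1.14, 1.09 and -1.03). Among all genes tested 35.9% had an adjusted p that low, 16.4% on the lower side and 19.5% on the higher side, so 3 of 10 members is near the background.

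Cldn10 (ENSMUSG00000022132, chr14:118787908-118875489, plus strand) read 10.6, 5.09, 9.30, 7.73 and 6.92 FPKM in C. In M it read 4.32, 0, 0, 6.49 and 2.93 FPKM, and in AA 3.97, 2.40, 4.71, 4.16 and 2.54 FPKM. Every AA library was below every C library, by a log2 fold change of -0.97 (SE 0.24, limma adjusted p = 0.00954). Leaving out any 1 library kept the limma adjusted p between 0.00790 and 0.0256, with values from -1.10 to -0.86, and those beyond -1, without C mouse 2 or 5 or AA mouse 1, 3 or 4, were called. It was also called with TPM (limma adjusted p = 0.00193), the total outside the mitochondrial genome (-1.24), library median centring (-1.12) and voom (-1.11). In M vs. C the estimate was larger, -1.67, but so was its error (SE 0.55, unadjusted p = 0.00948, limma adjusted p = 0.159), with M mice 2 and 3 listed at 0. Without M mice 1 to 3 that value was -0.68 (limma adjusted p = 0.510), and with TPM it was called (-2.60, limma adjusted p = 0.0359). Trpm6 and Cldn10 were the 2 members whose AA and C libraries did not overlap, both lower in AA, beside 24% of all genes that did not overlap and 12.5% that were lower.

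Cldn10 has 2 start sites far apart and is known for isoforms with different first exons, claudin 10a, an anion pore of the proximal tubule, and claudin 10b, a cation pore of the thick ascending limb. The FPKM of the gene joins both and cannot show which was lower, and the windows were not assigned to an isoform here. The summed level of 6 proximal tubule markers was 89.8 to 1015 FPKM in C, 0.338 to 26.9 in M and 7.73 to 13.2 in AA. Of these markers 3 were called lower in M vs. C (1.38% of all genes called) and 4 in AA vs. C (19.8%). Their part in the Cldn10 values was not tested. The RefSeq windows before the 2 start sites, chr14:118787621-118787870 and chr14:118854700-118854949 on the plus strand, are printed to show how unlike they are. Both are in lower case throughout because neither holds the nuclear receptor half-site or TATA box letters.

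Cldn10 first start: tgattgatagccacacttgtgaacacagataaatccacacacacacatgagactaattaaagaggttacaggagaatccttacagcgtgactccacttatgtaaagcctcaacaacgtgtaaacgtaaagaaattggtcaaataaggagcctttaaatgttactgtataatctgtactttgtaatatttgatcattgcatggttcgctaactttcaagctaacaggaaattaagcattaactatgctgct
Cldn10 second start: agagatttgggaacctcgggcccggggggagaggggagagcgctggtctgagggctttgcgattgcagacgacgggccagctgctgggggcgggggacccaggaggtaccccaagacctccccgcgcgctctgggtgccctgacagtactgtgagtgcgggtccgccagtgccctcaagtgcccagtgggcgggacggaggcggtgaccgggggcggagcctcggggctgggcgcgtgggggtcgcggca

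The first window is 36.0% G and C and the second is 72.4%.

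Cldn16 (ENSMUSG00000038148, chr16:26463135-26482765, plus strand) encodes the claudin whose loss wastes magnesium and calcium in urine. C libraries read 1.51, 1.08, 1.44, 1.51 and 0.739 FPKM. The M libraries read 2.79, 6.61, 1.26, 1.83 and 1.78 FPKM and the AA libraries 3.63, 4.63, 2.95, 1.91 and 1.48 FPKM. All 5 AA libraries and 4 of 5 M libraries were above the C mean of 1.26 ± 0.34 FPKM (SD, n = 5). The log2 fold change was 0.75 in AA vs. C (SE 0.25, limma adjusted p = 0.0360), 0.64 in M vs. C (SE 0.34, limma adjusted p = 0.364) and 0.11 in AA vs. M (SE 0.38, limma adjusted p = 0.877). The limma adjusted p in AA vs. C was above 0.05 without C mouse 2, 3 or 5 or AA mouse 1, 2 or 3, up to 0.0915, and with TPM scaling the difference was 0.02 (limma adjusted p = 0.970). The values rest on 20 to 112 fragments per library, 81 of them in M mouse 2.

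Cldn19 (ENSMUSG00000066058, chr4:119255414-119262438, plus strand) encodes the partner with which claudin 16 builds the pore. It read 8.04, 5.14, 6.31, 1.86 and 5.04 FPKM in C. It read 1.66, 0.673, 1.24, 4.88 and 4.67 FPKM in M, with mice 1 to 3 low and mice 4 and 5 within the C range, and 2.17, 2.24, 1.89, 1.97 and 3.45 FPKM in AA. All AA libraries were below the C mean and below every C library but C mouse 4, which was lower than all of them. The log2 fold change was -0.83 in AA vs. C (SE 0.29, limma adjusted p = 0.0427) and -0.88 in M vs. C (SE 0.43, limma adjusted p = 0.325). Without C mouse 4 the AA vs. C value was -1.09 (limma adjusted p = 0.00548), and without any other library but AA mouse 5 the limma adjusted p was above 0.05, up to 0.0955. With TPM it was called (-1.83, limma adjusted p = 0.00401). Without M mice 1 to 3 the M vs. C value was -0.02 (limma adjusted p = 0.995). AA vs. M was 0.05 (SE 0.38, limma adjusted p = 0.950).

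**Figure D2:**
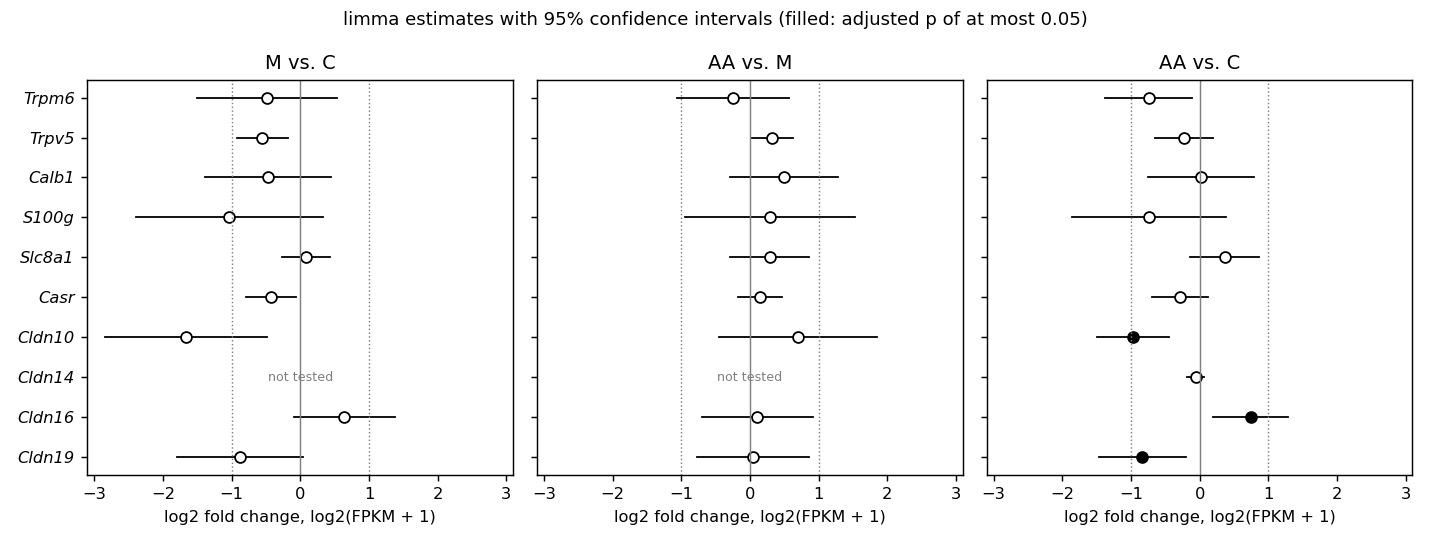
Log2 fold change on the log2(FPKM + 1) scale (x axis) of each gene (y axis) in the panels M vs. C, AA vs. M and, on the right, AA vs. C, as limma estimates with 95% confidence intervals and dotted lines at -1 and 1. Filled points, with adjusted p of at most 0.05, occur only in AA vs. C, for Cldn10 (-0.97), Cldn16 (0.75) and Cldn19 (-0.83), and no filled point lies beyond a dotted line.

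The median log2 fold change was -0.49 over the 9 members tested in M vs. C, 0.29 over the 9 tested in AA vs. M and -0.26 over all 10 in AA vs. C, beside -0.12, 0.17 and 0.09 over all genes tested. AA vs. M and M vs. C share the M libraries, and AA vs. C and M vs. C share the C libraries. In M vs. C 2 members had positive and 7 negative values, against 32.1% positive over all genes, while 8 were positive and 1 negative in AA vs. M, against 62.3% positive. Library median centring reversed 7 of those 8 positive values. In AA vs. C 3 of 10 were positive, against 56.3%.

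Because the tubule markers themselves changed, each member was also set against the markers of its segment within the same library, with no test. The planned measure was the log2(FPKM + 1) of the member minus the mean log2(FPKM + 1) of the segment's markers. Distal convoluted tubule markers served for Trpm6, Trpv5, Calb1, S100g and Slc8a1, and thick ascending limb markers for Casr, Cldn10, Cldn14, Cldn16 and Cldn19. A single segment was assigned to each gene, although the transcellular route also runs in the connecting tubule and the Cldn10 value joins both isoforms. For Calb1 this difference was -0.53 to -0.15 in C, 0.25 to 2.93 in M and 1.60 to 2.33 in AA, so neither M nor AA overlapped with C. For S100g it was 3.42 to 4.82 in C, 3.14 to 7.36 in M and 4.64 to 6.75 in AA, and all groups overlapped. Cldn16 stood at -3.26 to -1.98 in C and -1.21 to 0.43 in AA without overlap, while Cldn10 (-1.58 to 0.10 and -0.70 to 0.34) and Cldn19 (-1.80 to -0.32 and -0.77 to -0.32) overlapped. Trpm6, Trpv5, Slc8a1, Casr and Cldn14 were also higher against their markers in every AA than in any C library, but with levels near 0 FPKM in M or AA their difference mostly follows the level of the markers themselves. From C to AA the marker mean went from 3.32 to 0.98 (distal convoluted tubule) and from 3.66 to 2.22 (thick ascending limb). Any gene that fell less than the markers thus stands higher on this measure, Calb1 and Cldn16 among them. The share of all genes without overlap on it was not computed.

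Single pairs of genes, chosen after the values were seen, give a ratio of FPKM in which the scaling of libraries cancels. The ratio of Calb1 to Slc12a3 was 0.132 to 0.229 in the 5 C libraries and 3.64 to 8.00 in the 5 AA libraries. It was 1.84 and 0.530 in M mice 4 and 5, and could not be formed in M mice 1 to 3, where Slc12a3 was at 0 while Calb1 read 3.27 to 10.4 FPKM. For S100g over Slc12a3 the ratio was 3.61 to 8.04 in C, 24.2 and 5.01 in M mice 4 and 5, and 38.9 to 107 in AA. The ratio of Trpm6 to Slc12a3 was 0.0245 to 0.0468 in C, 0.992 and 0.600 in M mice 4 and 5, and 0.120 to 0.621 in AA. All 3 ratios were higher in every AA library than in any C library. Slc12a3 was chosen after its fall was seen, so a higher ratio restates that the numerator fell less than Slc12a3 did. For S100g this separation depended on the marker, since against the mean of the 5 distal convoluted tubule markers C and AA overlapped.

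The paracellular genes were set against Slc12a1, the sodium potassium chloride cotransporter of the thick ascending limb. It read 22.9, 68.4, 28.4, 26.9 and 49.9 FPKM in C, 14.5, 1.2, 4.42, 43.0 and 28.3 FPKM in M, and 5.29, 8.12, 5.62, 5.41 and 9.91 FPKM in AA. It fell by 2.27 in AA vs. C (SE 0.32, limma adjusted p = 0.000527). Like Slc12a3 it was chosen after the values were seen, so a higher ratio restates that the numerator did not fall as Slc12a1 did. Umod, another marker of this segment, did not fall with it. Umod read 15.4 to 50.4 FPKM in C and 19.4 to 52.8 FPKM in AA, and no ratio to it was formed. The ratio of Cldn16 to Slc12a1 was 0.0148 to 0.0661 in C and 0.150 to 0.687 in AA, with no overlap, and it was 0.0426 and 0.0628 in M mice 4 and 5 and 0.192, 5.53 and 0.284 in M mice 1 to 3. For Cldn10 and Cldn19 over Slc12a1 the C and AA ranges overlapped, at 0.0744 to 0.464 against 0.256 to 0.838 and 0.0691 to 0.351 against 0.275 to 0.410. Between the pore partners, the ratio of Cldn16 to Cldn19 had a median of 0.210 in C (0.147 to 0.814), 1.01 in M (0.375 to 9.81) and 1.56 in AA (0.429 to 2.07), so the groups overlapped.

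**Figure D3:**
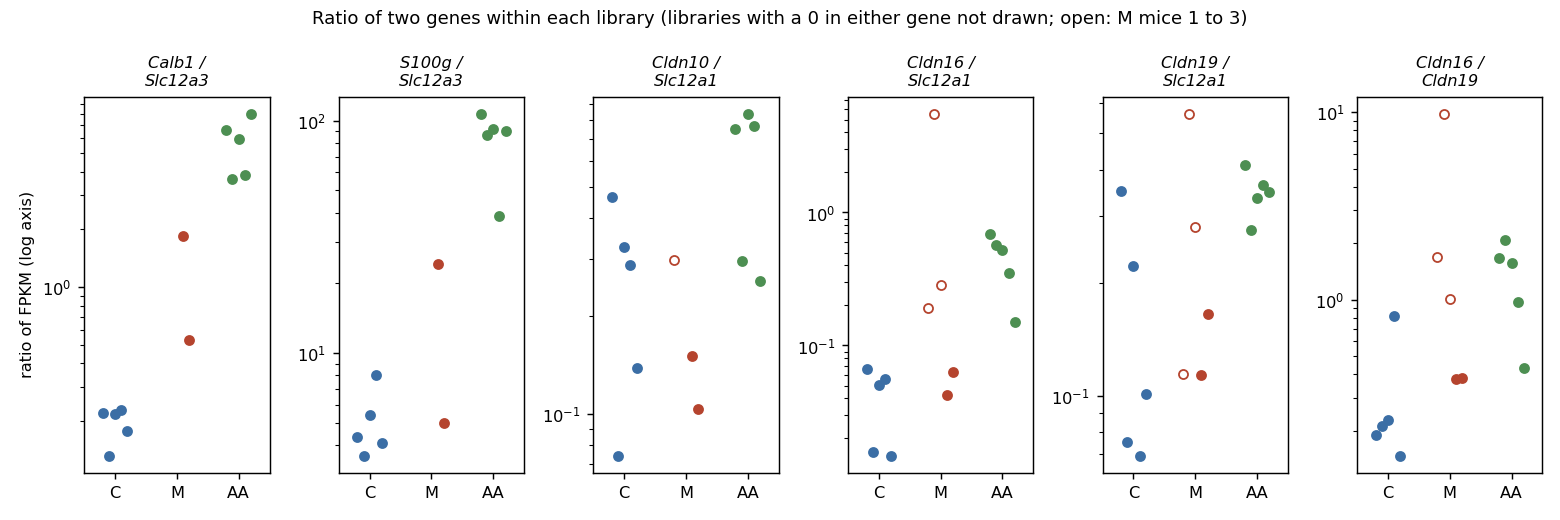
Ratio of the FPKM of 2 genes within each library (y axis, log scale, separate for each panel) in the C, M and AA groups, with M mice 1 to 3 as open circles and libraries with a 0 in either gene left out. Calb1 over Slc12a3 lies at 0.132 to 0.229 in C and at 3.64 to 8.00 in AA, and Cldn16 over Slc12a1 at 0.0148 to 0.0661 in C and at 0.150 to 0.687 in AA.

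The wider marker lists of these segments differed between the groups, though not every marker did so in every library, as with Pvalb in M mice 2 and 3. Of 5 distal convoluted tubule markers 3 were called lower in M vs. C, as were 4 in AA vs. C, and their summed level was 48.5 to 196 FPKM in C, 2.56 to 27.1 in M and 3.71 to 10.1 in AA. Of 6 thick ascending limb markers 1 and 3 were called lower, with sums of 83.5 to 216 FPKM in C, 9.98 to 98.8 in M and 33.9 to 65.1 in AA. In AA vs. C 2 of these 6 had positive and 4 had negative log2 fold changes. Of 7 markers of connecting tubule and principal cells 3 and 4 were called lower, with sums of 36.4 to 494 FPKM in C, 1.76 to 16.1 in M and 6.12 to 16.0 in AA, where Avpr2 was listed at 0 in all 5 libraries. No other marker of these 3 lists was at 0 in every library of a group. Of 4 leukocyte markers 1 was called higher in M vs. C, as were 2 in AA vs. C (sums of 6.61 to 59.7 FPKM in C, 86.9 to 346 in M and 71.0 to 133 in AA), and of 4 fibroblast markers 0 (2 at an unadjusted p under 0.05 by limma) and 4 (29.6 to 74.3, 63.7 to 278 and 183 to 320 FPKM). The part of these shifts in the values of the 10 genes was not tested.

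Other genes of the same physiology were taken from lists by function. Of 21 further genes of transcellular transport, 1 fell in M vs. C (18 tested), 0 were called in AA vs. M (16 tested, 1 at an unadjusted p under 0.05 by limma) and 2 fell in AA vs. C (19 tested). Over all genes tested the called share was 1.38%, 12.8% and 19.8% in that order, so the AA vs. M and AA vs. C counts are below it. Fxyd2, the gamma subunit of the sodium potassium pump whose mutation wastes magnesium, read 106, 158, 83.5, 149 and 198 FPKM in C, 70.1, 26.1, 20.4, 50.6 and 24.0 FPKM in M, and 22.1, 22.2, 45.8, 31.4 and 50.2 FPKM in AA. It fell by 1.93 in M vs. C (SE 0.40, limma adjusted p = 0.0350) and by 2.00 in AA vs. C (SE 0.32, limma adjusted p = 0.000981), with no overlap with C. The M vs. C call was lost when any 1 of C mice 1, 2, 4 and 5 or M mice 2 and 3 was left out, at values from -2.01 to -1.75 (limma adjusted p from 0.0514 to 0.118). It was also lost with no filter (limma adjusted p = 0.0809), with library median centring (-1.57, limma adjusted p = 0.135) and without M mice 1 to 3 (-1.90, limma adjusted p = 0.126). Cnnm1, of the family of ion transport mediators, had means of 1.57 ± 1.07 FPKM in C and 0.0937 ± 0.0676 FPKM in AA (SD, n = 5), one AA library being listed at 0, and fell by 1.14 in AA vs. C (limma adjusted p = 0.00416; -0.93 without C mouse 3). Its value in M vs. C was -1.06 (limma adjusted p = 0.107), and it was called there with TPM (-1.93), voom (-4.96) and all 15 libraries in one fit (limma adjusted p = 0.0175). The largest differences in AA vs. M on this list, -0.64 for Pvalb, a calcium buffer of the early distal convoluted tubule, and -0.61 for Slc41a3, a magnesium transporter, had limma adjusted p of 0.464 and 0.355.

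Among 18 further claudins, 10 were tested in each comparison. In AA vs. M 1 was called higher and 1 lower, beside 12.8% of all genes called. In AA vs. C 1 was called higher and 2 lower, beside 19.8%. In M vs. C none was called, and none had an unadjusted p under 0.05 by limma, the largest values being -1.20 for Cldn8 and -1.14 for Cldn4, claudins of the distal nephron that pair with each other (limma adjusted p = 0.396 and 0.375). In AA vs. M Cldn2, the cation and water pore of the proximal tubule, rose by 1.19 (limma adjusted p = 0.0453) from 0.467, 0.633, 2.41, 1.95 and 2.74 FPKM to 5.52, 6.60, 3.91, 1.91 and 6.95 FPKM. That call was lost when any 1 of M mice 1 to 4 or AA mice 1, 2, 3 and 5 was left out, at values from 1.01 to 1.31 (limma adjusted p from 0.0575 to 0.103). It was also lost with a pseudocount of 0.1, no filter, TPM, the total outside the mitochondrial genome, quantile normalization, library median centring, voom and without M mice 1 to 3, at values from 0.68 to 1.69 (limma adjusted p from 0.0569 to 0.269). Cldn5, the endothelial claudin, fell by 1.53 in AA vs. M (limma adjusted p = 0.0308) and by 1.73 in AA vs. C (limma adjusted p = 0.00356). The AA vs. M call was lost without any 1 of M mice 2, 4 and 5 or AA mice 2, 3 and 5, at values from -1.56 to -1.26 (limma adjusted p from 0.0501 to 0.0714), with no filter (limma adjusted p = 0.0728) and with TPM (limma adjusted p = 0.130). Cldn1, a barrier claudin, rose by 1.53 in AA vs. C (limma adjusted p = 0.00286), from 0.219 to 0.745 FPKM in C to 1.36 to 6.53 FPKM in AA, without overlap. Cldn7, a claudin of the distal nephron, fell by 1.40 in AA vs. C (limma adjusted p = 0.0132).

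All 21 genes of the list of hormones, receptors and regulators were tested. Called were 1 lower in M vs. C, 1 higher in AA vs. M and 6 lower in AA vs. C. The shares of all genes called were 1.38%, 12.8% and 19.8% in that order. Egf, the growth factor made in the distal convoluted tubule and thick ascending limb that activates TRPM6, read 10.1, 36.5, 8.48, 14.1 and 31.7 FPKM in C, 3.81, 0.798, 0.131, 5.35 and 0.980 FPKM in M and 0.801, 1.64, 0.928, 1.02 and 1.91 FPKM in AA. It fell by 2.79 in M vs. C (SE 0.54, limma adjusted p = 0.0284), the only call on the list in that comparison, and by 3.03 in AA vs. C (SE 0.38, limma adjusted p = 0.000315). Both groups lay wholly below C. The M vs. C call was lost without any 1 of C mice 2, 4 and 5 or M mice 2 and 3, at values from -2.85 to -2.49 (limma adjusted p from 0.0539 to 0.0940), and with no filter (limma adjusted p = 0.0809). Without M mice 1 to 3 it was -2.35 (limma adjusted p = 0.179), and no gene of the 3 lists was then called in M vs. C.

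Further genes of this list fell in AA vs. C. Pcbd1, an enzyme that recycles the cofactor tetrahydrobiopterin, fell by 1.28 (limma adjusted p = 0.020; -0.99 without AA mouse 1), and Pth1r, the parathyroid hormone receptor, fell by 1.70 (limma adjusted p = 0.00811). Ap2s1, an adaptor subunit that internalizes the calcium-sensing receptor, fell by 1.01 (limma adjusted p = 0.0117), and Sgk1, a kinase that keeps distal channels at the membrane, fell by 1.10 (limma adjusted p = 0.0325). The Ap2s1 call was lost without C mouse 2, 3 or 4 or AA mouse 2 (-0.99 to -0.82) and the Sgk1 call without C mouse 1 or 3 or AA mouse 2 or 3 (-1.07 to -0.77), with no filter (limma adjusted p = 0.0587) or with the total outside the mitochondrial genome (limma adjusted p = 0.0549). In AA vs. M 1 gene rose, Stc1, a stanniocalcin that acts on calcium and phosphate transport, by 1.35 (limma adjusted p = 0.0115), from 0, 0, 0.526, 0.601 and 0.885 FPKM in M to 3.6, 2.40, 1.29, 3.82 and 1.88 FPKM in AA. Against M mice 4 and 5 alone it was 0.99 (limma adjusted p = 0.114), and the call was also lost with TPM (limma adjusted p = 0.122) and library median centring (0.84, limma adjusted p = 0.0542). Rragd, a GTPase whose mutation wastes magnesium, was 1.00 higher in AA vs. M (limma adjusted p = 0.0378), just short of the fold threshold before rounding, and was called with a pseudocount of 0.1 (1.48) and with voom (limma adjusted p = 0.0427).

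**Figure D4:**
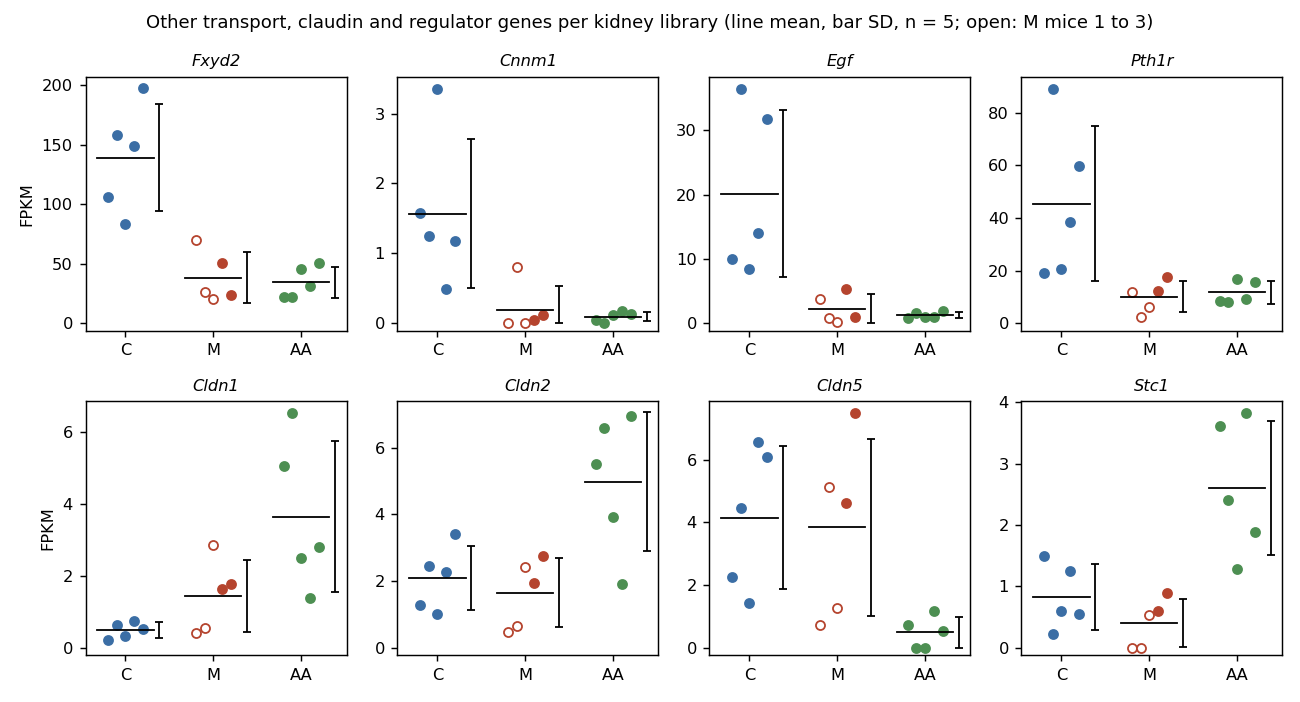
FPKM (y axis, linear, a separate scale for each gene) of 8 further genes in the C, M and AA libraries, with the mean as a line and the SD as a bar (n = 5, its lower end stopped at 0) and M mice 1 to 3 as open circles. Fxyd2 and Egf lie lower in both M and AA than in C without overlap, and Stc1 lies at 1.29 to 3.82 FPKM in AA against 0 to 0.885 FPKM in M.

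Across the 15 libraries the members varied in pairs, given as descriptions over libraries that share group and depth. Calb1 and S100g had the highest correlation of log2(FPKM + 1) (Pearson r = 0.82, n = 15), Cldn10 and Cldn19 had r = 0.72 and Cldn16 and Cldn19 had r = -0.63. Among 9036 protein-coding genes with a mean FPKM of at least 1, the pattern most like Trpm6 was that of Sema4a (r = 0.95), Washc1 and Mum1 (both r = 0.94). The closest to Calb1 were Tmem52b (r = 0.92), Ankrd13c (r = 0.84) and Calml4 (r = 0.82). For Cldn10 they were Klhdc8a (r = 0.96), Jup (r = 0.91) and Atp2a3 (r = 0.89), and for Cldn16 Dcaf12 (r = 0.91), Rhobtb3 (r = 0.89) and Sec23a (r = 0.88). Those of Trpv5 were Fmo4 (r = 0.92), Slc5a11 (r = 0.91) and Oxgr1 (r = 0.89), those of Cldn19 Zmiz2 (r = 0.91), Igsf5 and Pax8 (both r = 0.90), and those of Slc8a1 Ncstn (r = 0.79), Pigt (r = 0.78) and Fbn1 (r = 0.76).

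By mean FPKM in C the order was S100g, Cldn10, Calb1, Cldn19, Trpm6, Cldn16, Trpv5, Casr, Slc8a1 and Cldn14. All neighbours in it but the first pair overlapped over the 5 libraries. In AA the order was S100g, Calb1, Cldn10, Cldn16, Cldn19, Slc8a1, Trpm6, Trpv5, Casr and Cldn14, and besides the first pair only Cldn19 and Slc8a1 did not overlap. FPKM is divided by exon length, so these levels can be compared between genes.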

How the data were processed

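Poly-A RNA of 15 kidneys (5 C, 5 M, 5 AA) was sequenced by the authors, trimmed with fastp, aligned to mm10 (GRCm38) with HISAT2 2.0.5 and counted with featureCounts 1.5.0-p3 per the submitters' processing notes. The authors deposited FPKM per Ensembl gene; 54495 of 54532 genes matched GENCODE M21, and the annotation they used is not given in the sources used here.

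Low FPKM values times exon length fell on whole multiples of 1 step per library (97.2 to 98.6% within 0.02), which gave the fragments behind each value, with a factor of 2 not resolved. The implied scaling totals were 0.518 to 2.30 times the counted fragments and followed median-of-ratios size factors (0.953 to 1.04 times), so the FPKM had already been scaled in that way. Floors of 3 counts cover counting error only.

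The 3 pairs of groups were each fitted alone, on log2(FPKM + 1) of 10 libraries, with limma 3.58.1 in R 4.3.3 (lmFit, then eBayes with its trend option), no block and Benjamini-Hochberg adjustment over all genes tested. The design planned for a normalized unit was used as written. The mouse numbers were not used to pair the samples, since the labels do not say what they mark. The members, lists, markers and alternatives were chosen with earlier results of these data known. Named were all members, every called gene of 3 lists by function but 1 that is not reported here, the 2 largest changes of each list in M vs. C and AA vs. M, segment markers a result turned on, and the 3 genes most like a member by Pearson correlation. Housekeeping genes and gene pairs for ratios were chosen after values were seen. Alternatives were another pseudocount (0.1), other filters and scalings, all 15 libraries in one fit, a replicate block, no trend, limma voom on the recovered fragments, and leaving out libraries. Promoters came from RefSeq on GRCm38.p6. The M vs. C fit was also run on simulated counts, with changed genes only at a mean FPKM of at least 1. The simulation had no loss of genes like that of M mice 1 to 3, so it does not show how the fits behave for members near 0. Tables and plots used matplotlib 3.10.9, scipy 1.17.1, pandas 2.3.3 and numpy 2.4.6 under Python 3.11.15.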

Additional observations from a re-analysis of the deposited data

Results flagged for a closer look

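In 4 of 29 groups of 5 libraries of a member, 1 library lay farther from the others than Dixon's critical value of 0.71 allows. For normally distributed values chance flags about 1 in 20 groups, a rate that does not hold where several libraries are listed at 0. Trpv5 and Cldn14 below are such groups, so the count is not set against that rate. Trpv5 in M mouse 5 read 0.247 FPKM, with 0 in M mice 1 to 3 (Dixon ratio 0.915). Cldn14 in AA mouse 1 read 0.0690 FPKM with the other AA libraries at 0, where any value above 0 gives a ratio of 1. Cldn16 in M mouse 2 read 6.61 FPKM (ratio 0.713), in the library with the fewest genes above 0. Cldn19 in AA mouse 5 read 3.45 FPKM (ratio 0.779).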

How the results depend on the processing

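Of 595 fits of members under alternatives, 553 kept the direction, 42 reversed it and 24 were called. Members called in M vs. C numbered 3 with TPM and 1 with voom on recovered fragments. In AA vs. M they numbered 1 without M mice 1 to 3 and 1 with voom, and in AA vs. C 4 with a pseudocount of 0.1, 4 with TPM, 2 with the total outside the mitochondrial genome, 1 with library median centring and 1 with voom. Leaving out 1 library at a time gave 0 members called in M vs. C, 0 in AA vs. M and 0 to 1 in AA vs. C.

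Genes called in M vs. C (291) came to 33 with no filter, 448 at a mean FPKM of at least 1, 1609 with TPM, 786 with all 15 libraries in one fit, 14 without M mice 1 to 3, and 1 to 766 with 1 library left out, the 1 without C mouse 5. In AA vs. M (2533) they came to 422 with TPM, 4007 with voom and 1767 to 2841 with 1 library left out, and in AA vs. C (4346) to 7474 with a pseudocount of 0.1, 6785 with TPM, 7212 with the total outside the mitochondrial genome, 7729 with voom and 3495 to 4818. Genes of the 3 lists called in M vs. C (2) came to 0 with no filter, 9 with TPM, 1 with library median centring, 7 in one fit, 0 without M mice 1 to 3 and 0 to 4 with 1 library left out. In AA vs. M (3) they came to 1 with no filter, 0 with TPM, 5 with voom and 1 to 3, and in AA vs. C (11) to 17 with a pseudocount of 0.1, 23 with TPM, 18 with the total outside the mitochondrial genome, 21 with voom and 9 to 13. A block on the mouse number (replicate block) gave 152 genes and 1 listed gene called in M vs. C and changed no member's call, and it left Fxyd2 in M vs. C at a limma adjusted p of 0.0748 and Cldn2 in AA vs. M at 0.0766. Deviations of same-numbered libraries correlated between -0.127 and 0.218, over 0.1 in 3 of 15 pairs. Differently numbered libraries were not compared, so this does not settle whether a number marks shared handling.

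Reversed were, with TPM, Slc8a1 (-0.044) and Cldn16 (-0.011) in M vs. C, Cldn19 (-0.080) in AA vs. M and Calb1 (-0.98) in AA vs. C. With the total outside the mitochondrial genome they were Trpm6 (0.029), Cldn16 (-0.0074) and Cldn19 (-0.010) in AA vs. M and Calb1 (-0.055) in AA vs. C. With quantile normalization they were Casr (-0.076), Cldn16 (-0.14) and Cldn19 (-0.30) in AA vs. M. Library median centring reversed Trpv5 (-0.19), Calb1 (-0.021), S100g (-0.22), Slc8a1 (-0.23), Casr (-0.37), Cldn16 (-0.41) and Cldn19 (-0.47) in AA vs. M and Calb1 (-0.13) in AA vs. C. A pseudocount of 0.1 gave 0.18 for Trpm6 in AA vs. M, and voom gave -1.07 for Slc8a1 in M vs. C and 1.46 for Trpm6 and -0.31 for Cldn19 in AA vs. M. Without M mice 1 to 3 Trpm6 reversed in M vs. C (0.52). So did Slc8a1 (-0.012), Casr (-0.064), Cldn10 (-0.28), Cldn19 (-0.81) and Pvalb (0.33) in AA vs. M. With 1 library left out, values crossed 0 for Slc8a1 in M vs. C (-0.031 to 0.17), for Cldn19 (-0.19 to 0.27), Cldn16 (-0.048 to 0.39), Trpm6 (-0.45 to 0.10) and S100g (-0.066 to 0.68) in AA vs. M, and for Calb1 in AA vs. C (-0.18 to 0.22). The cause was not tested.

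The median of all genes was -0.12 in M vs. C, 0.17 in AA vs. M and, for AA vs. C, 0.09, and in that order -0.58, 0.12 and -0.39 with TPM, -0.47, 0.37 and 0.08 with the total outside the mitochondrial genome, 0.04, -0.10 and 0.03 with quantile normalization, and 0.24, -0.35 and -0.06 with library median centring. Of the called genes 19.6%, 91.6% and 51.6% were higher in the first group, and 1.93%, 98.3% and 12.7% with TPM, 26.6%, 69.5% and 47.3% with quantile normalization, and 38.9%, 43.1% and 40.1% with library median centring. Depth limits Cldn14, with at most 8 fragments in a library, and Trpv5 and Casr in M mice 1 to 3, where no fragment was counted.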
